A study of Mus musculus with 16 samples.

Results

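The interleukin-1 (IL-1) and interleukin-18 (IL-18) ligands and receptors described here were 8 genes, Il1r1, Il1r2, Il1rap, Il1b, Il1rn, Il18, Il18r1 and Il18rap. They were chosen by name, as the probe sets of the array that carry 1 gene symbol, and all 8 were found among the 22180 genes measured. The choice was made with earlier results of these data known. Il1rap had 3 such probe sets, of which the brightest over the 16 arrays was used, and the other 7 genes had 1 each. RNA was measured on arrays of mouse bone-marrow progenitors sorted as lineage-negative, c-Kit-positive, CD105-negative cells. Common myeloid progenitors (CMPs) were gated as intermediate for the Fc receptors CD16 and CD32 and negative for CD115, granulocyte-monocyte progenitors (GMPs) as high for these receptors and negative for CD115, and committed monocyte progenitors (cMoPs) as CD115- and Ly6C-positive. The antibiotic groups came from mice that drank ampicillin, metronidazole, neomycin and vancomycin, each at 1 g/L, for 3 weeks, and the control groups from mice on water without these drugs. Both waters held 2% sucrose. There were 3 antibiotic and 3 control arrays of CMPs, 3 antibiotic and 2 control arrays of GMPs, and 3 antibiotic and 2 control arrays of cMoPs. The strain, age and genotype of the mice are not stated in the labels read here. It is also unstated if an array stands for 1 animal or for pooled animals. The p-values therefore measure the spread between these samples, which may be technical, and precision is limited by the number of arrays.

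IL-1 alpha and IL-1 beta bind the receptor IL1R1, which pairs with the accessory protein IL1RAP and signals through the adaptor MyD88 and IRAK kinases to NF-kB. The decoy receptor IL1R2 and the antagonist IL1RN limit this signal. IL-18 binds IL18R1, which pairs with IL18RAP and uses the same adaptor, and the precursors of IL-1 beta and IL-18 are cut by caspase-1 in inflammasomes. In bone marrow, IL-1 is known to drive hematopoietic stem and progenitor cells toward myeloid output during inflammation. T cells, natural killer cells, mast cells and basophils are classical carriers of the IL-18 receptor.

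After antibiotics the arrays showed a higher signal of 2 receptor chains, Il1r1 and Il18rap, over the 3 progenitors, at the permissive false discovery rate of the study's design and with calls that depended on single arrays. The difference between progenitors was larger: averaged over both waters, Il1r1 stood lower in GMPs and in cMoPs than in CMPs, with log2 differences of -2.17 and -1.99, while its partner Il1rap was higher in both by less than 1 unit. The ligands Il1b and Il18 and the antagonist Il1rn stayed below the upper quartile of every array. So did the receptor chains Il1r2, Il1rap and Il18r1.

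Of the 8 genes, 4 lie in the receptor gene cluster of chromosome 1, whose order is Il1r2, Il1r1, Il1rl2, Il1rl1, Il18r1 and Il18rap. Il1rn and Il1b lie on chromosome 2 with Il1a between them, Il1rap lies on chromosome 16 and Il18 on chromosome 9. Start-site windows were available for 8 of 8 genes, as 13 windows of 250 bases before a start site in RefSeq on build GRCm38.p6. The windows shown are those of the genes whose signals differed with water or between progenitors and on which the results turn. They are the 2 start sites of Il1r1, at chr1:40224830-40225079 and chr1:40266336-40266585, the single start site of Il18rap at chr1:40515112-40515361 and that of Il1rap at chr16:26581455-26581704, all on the plus strand. Capitals mark matches, on either strand, to the motifs listed in the next paragraph.
Il1r1 start site 1: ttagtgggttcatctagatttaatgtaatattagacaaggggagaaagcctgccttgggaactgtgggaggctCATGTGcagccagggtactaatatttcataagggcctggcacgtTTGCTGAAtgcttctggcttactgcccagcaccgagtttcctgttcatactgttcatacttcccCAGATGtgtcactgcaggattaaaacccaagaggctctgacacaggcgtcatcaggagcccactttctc
Il1r1 start site 2: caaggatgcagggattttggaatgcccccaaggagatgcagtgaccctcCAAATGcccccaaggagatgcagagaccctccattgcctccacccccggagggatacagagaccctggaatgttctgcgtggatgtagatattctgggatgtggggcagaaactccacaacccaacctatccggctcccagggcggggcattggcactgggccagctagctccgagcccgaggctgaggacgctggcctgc
Il18rap: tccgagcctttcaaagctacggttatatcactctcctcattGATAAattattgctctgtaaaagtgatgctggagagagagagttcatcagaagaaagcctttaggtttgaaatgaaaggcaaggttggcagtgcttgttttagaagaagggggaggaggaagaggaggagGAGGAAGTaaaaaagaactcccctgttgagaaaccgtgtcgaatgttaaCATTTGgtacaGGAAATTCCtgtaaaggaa
Il1rap: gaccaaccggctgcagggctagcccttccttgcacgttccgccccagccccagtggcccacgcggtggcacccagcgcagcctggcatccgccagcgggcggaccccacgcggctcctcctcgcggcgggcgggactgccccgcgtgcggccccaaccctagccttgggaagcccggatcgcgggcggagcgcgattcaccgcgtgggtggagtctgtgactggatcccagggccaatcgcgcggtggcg

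The motifs searched were GAGGAAGT for ETS factors and PU.1, GATAA for GATA factors, CANNTG for E-box factors, TTGCNNAA for C/EBP, TGTGGT for RUNX, TGANTCA for AP-1, and GGAANTTCC for NF-kB. They were chosen with the windows in view, and none of the matches shown overlaps another. Among 32851 windows of the same length over all genes, GAGGAAGT was found in 2.44%, GATAA in 22.6%, CANNTG in 66.2%, TTGCNNAA in 9.56%, TGTGGT in 14%, TGANTCA in 6.75% and GGAANTTCC in 0.813%. The Il18rap window held the ETS letters from base -79 to -72, a GATA match from -209 to -205, an E-box from -30 to -25 and the NF-kB letters GGAAATTCC from -19 to -11, counted from the start site. Il1r1 start site 1 held E-boxes from -177 to -172 and from -69 to -64 and the C/EBP letters from -133 to -126, and start site 2 held 1 E-box from -201 to -196. The Il1rap window held none of these motifs and was rich in G and C, at 74.4% against a median of 52.4% over all windows. The decoy receptor gene Il1r2 was the other gene with NF-kB letters, GGAACTTCC from -106 to -98. A match describes letters and is not a measured site, and the arrays do not separate transcripts by start site.

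The table gives log2 signals with no detection calls, and levels of different probe sets are not comparable. As a guide to brightness, quartiles were taken on each array over all 41345 probe sets, also those without a gene symbol. Lower quartiles of the 16 arrays lay between 2.89 and 2.99, the medians between 4.04 and 4.17 and the upper quartiles between 6.24 and 6.41. Il1r1, Il1rap and Il18rap stood above the array's own median on 16 of 16 arrays. Il1rn did so on 6 arrays, Il18 and Il18r1 on 4 each, Il1r2 on 3 and Il1b on 1, so these 5 were dim. No gene of the set fell below the lower quartile of an array. Sorted bulk cells were measured, so fewer cells that make an RNA and less of it per cell cannot be told apart. Of the 8 genes listed for the gates 7 were measured, all but Ly6a, which is not among the gate markers named above. All 7 differed between GMPs and CMPs, 5 higher and 2 lower in GMPs, where 7.87% of all genes were higher and 8.17% lower. The Fc receptor genes Fcgr3 and Fcgr2b were higher in GMPs by 3.14 and 2.08 log2 units, and Csf1r, which encodes CD115, by 0.58. Between cMoPs and GMPs, where 5.42% of all genes were called, 1 gate gene was higher, Csf1r at 1.95, and 1 lower, Kit at -0.62. The Ly6C genes Ly6c1 and Ly6c2 were not called there, at 0.56 and 0.14 (limma adjusted p of 0.154 and 0.817), and were higher in cMoPs than in CMPs by 1.60 and 2.41.

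**Figure D1:**
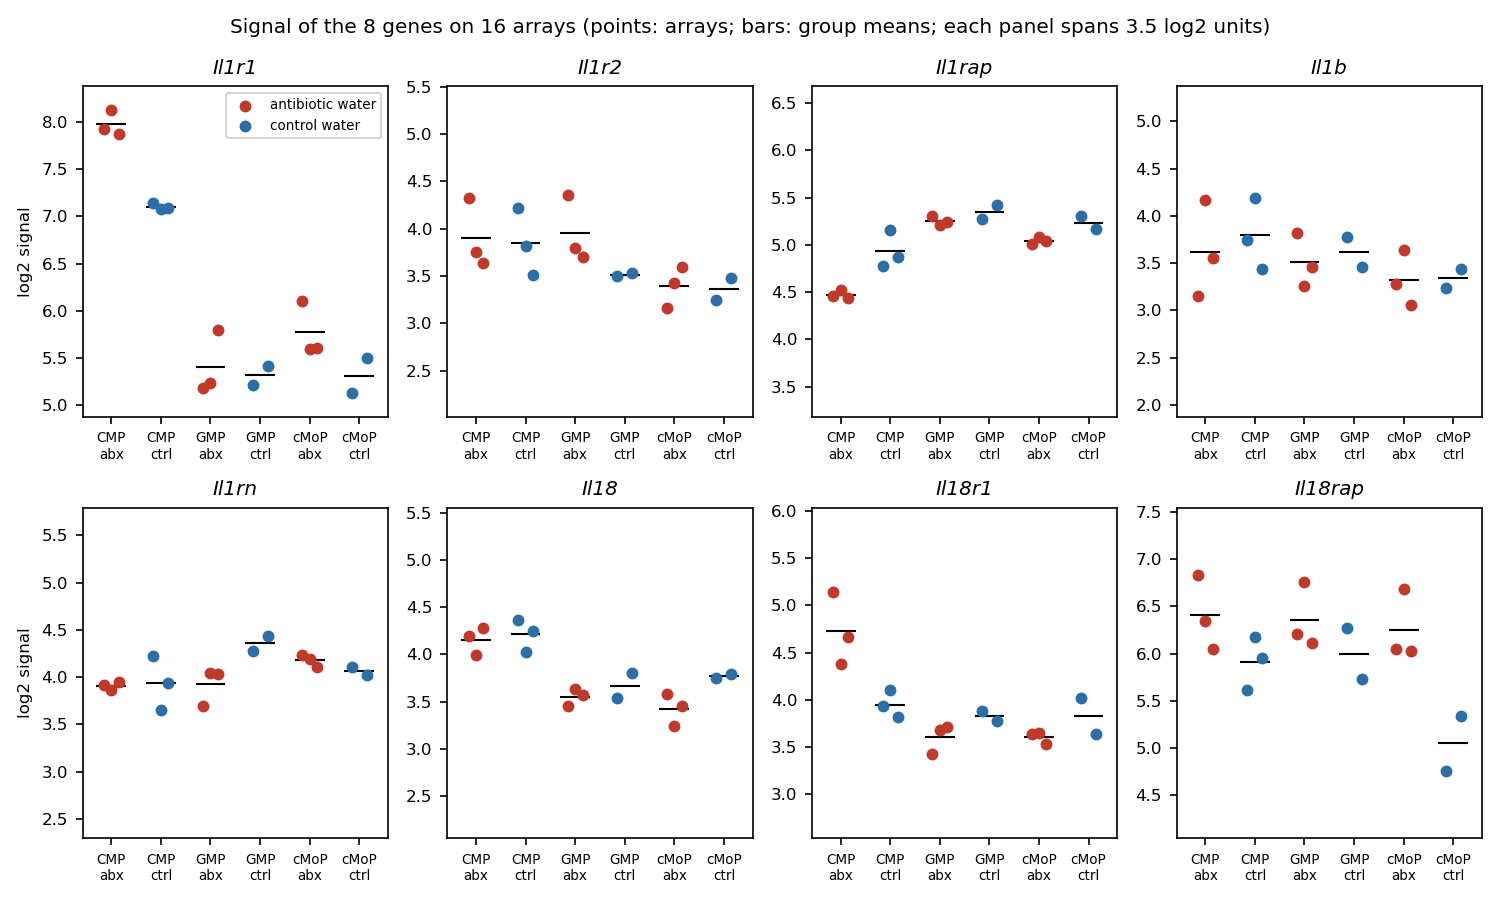
Log2 signal (vertical axis) of the 8 genes on 16 arrays, by progenitor and water (horizontal axis; abx, antibiotic water; ctrl, control water); points are arrays, bars are group means, and every panel spans the same log2 height. Il1r1 stands above 7 on the 6 CMP arrays and at or below 6.11 on the 10 others, and Il18rap is lowest on the 2 cMoP control arrays, at 4.76 and 5.34.

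Il1r1, the signalling receptor of IL-1, was the most clearly structured gene of the set. In CMPs its log2 signal was 7.92, 8.13 and 7.87 after antibiotics, against 7.14, 7.08 and 7.09 in control water. In GMPs it was 5.19, 5.24 and 5.80 after antibiotics and 5.22 and 5.42 in control water, and in cMoPs 6.11, 5.60 and 5.61 after antibiotics and 5.13 and 5.50 in control water. The antibiotic arrays all lay above the control arrays in CMPs and in cMoPs, and the groups overlapped in GMPs. Group means ran in the order CMP antibiotic, CMP control, cMoP antibiotic, GMP antibiotic, GMP control and cMoP control. Neither CMP group overlapped its neighbours in this order, and neighbours among the other 4 groups overlapped.

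Genes that tell the progenitors apart were read beside Il1r1 in CMPs. The mean of 6 genes high in CMPs, such as the erythroid and megakaryocyte factor Gata1, was 8.44 after antibiotics and 8.41 in control water, with 0 of 6 called for water. In CMPs 1 of the 6 had an unadjusted limma p under 0.05, where 7.24% of all genes did. Their median difference there was -0.07, with 2 positive and 4 negative. The mean of 6 genes high in cMoPs was 7.35 after antibiotics (arrays at 7.16 to 7.66) and 7.86 in control water (7.78 to 7.93). Within CMPs the monocyte transglutaminase gene F13a1 was called lower after antibiotics, at -1.15 ± 0.17 (limma adjusted p = 0.0301). The median difference of these 6 genes in CMPs was -0.58, with 4 of 6 at an unadjusted p under 0.05. Over the 3 progenitors the chemokine receptor gene Ccr2 and F13a1 were called lower, at -0.47 ± 0.11 and -0.43 ± 0.10, with limma adjusted p of 0.18 and 0.183. Of all genes 0.243% were called lower in that comparison. The mean of 6 genes high in GMPs was 9.08 in CMPs after antibiotics (8.71 to 9.49) and 9.42 in control CMPs (9.27 to 9.64). Of these, 5 had a negative difference in CMPs, 2 were at an unadjusted p under 0.05 and 0 were called by limma. The 2 were the granule protease genes Prtn3, at -0.82 ± 0.18 (limma adjusted p = 0.231), and Elane, at -0.74 ± 0.26 (0.519). The part of these lists in the Il1r1 result was not tested.

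Averaged over the 3 progenitors, the antibiotic effect on Il1r1 was 0.47 ± 0.11 log2 units (SE, 95% interval 0.23 to 0.71), or 1.39-fold, with a limma adjusted p of 0.183. It passed the study's rate of 0.2. Within single progenitors it did not: the difference was 0.87 ± 0.18 in CMPs (limma adjusted p = 0.231), 0.09 ± 0.20 in GMPs (0.955) and 0.46 ± 0.20 in cMoPs (0.798). A test of whether the effect differed between progenitors gave an unadjusted p of 0.0343 and a limma adjusted p of 0.839. The averaged estimate stayed between 0.41 and 0.53 when each array was left out in turn. The call was kept in 4 of these 16 fits, those without GMP antibiotic 1, GMP antibiotic 3, cMoP antibiotic 3 or cMoP control 2, and was lost in the other 12, with adjusted p up to 0.404.

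Il18rap, the accessory chain of the IL-18 receptor, was the other gene called for water. Its log2 signal in CMPs was 6.83, 6.34 and 6.05 after antibiotics, against 5.61, 6.18 and 5.95 in control water. In GMPs it was 6.21, 6.76 and 6.11 after antibiotics and 6.27 and 5.73 in control water, and in cMoPs 6.05, 6.68 and 6.03 after antibiotics and 4.76 and 5.34 in control water. Only in cMoPs did the arrays of the 2 waters not overlap. The mean effect over progenitors was 0.69 ± 0.16 log2 units (95% interval 0.34 to 1.03), or 1.61-fold, with a limma adjusted p of 0.18.

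The estimates for Il18rap within progenitors were all positive and none was called. They were 0.49 ± 0.26 in CMPs (limma adjusted p = 0.715), 0.36 ± 0.29 in GMPs (0.835) and 1.20 ± 0.29 in cMoPs (0.352). The cMoP difference rests on 2 control arrays. Leaving out 1 array at a time gave a mean effect of 0.59 to 0.78, and the call held without CMP antibiotic 3, CMP control 2, GMP antibiotic 3, GMP control 1, cMoP antibiotic 3 or cMoP control 2. It was lost in the other 10 fits, with an adjusted p up to 0.396 without cMoP control 1. That array had the lowest Il18rap signal of the 16.

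Over the 3 progenitors, 2 of the 8 genes were called higher after antibiotics and 0 lower, while 0.514% of all genes were called, 0.271% higher and 0.243% lower. The members were not drawn at random and share one pathway, so these shares are set side by side without a test. The median effect over the 8 genes was 0.01 log2 units and that over all genes -0.01. At an unadjusted p under 0.05 there were 3 of the 8 in this comparison, where 9.54% of all genes had such a p. Within CMPs, GMPs and cMoPs, 0 of 8 were called by limma, where 0.0406%, 0.0721% and 0.131% of all genes were. At an unadjusted p under 0.05 there were 3 of 8 in CMPs, 1 in GMPs and 3 in cMoPs, beside 7.24%, 7.49% and 6.2% of all genes, so the GMP count is near the share of all genes. The antibiotic effect differed between progenitors for 0 of 8 genes after adjustment, against 0.00451% of all genes, and for 2 at an unadjusted p under 0.05, Il1r1 and Il18r1, where 5.79% of all genes had such a p.

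**Figure D2:**
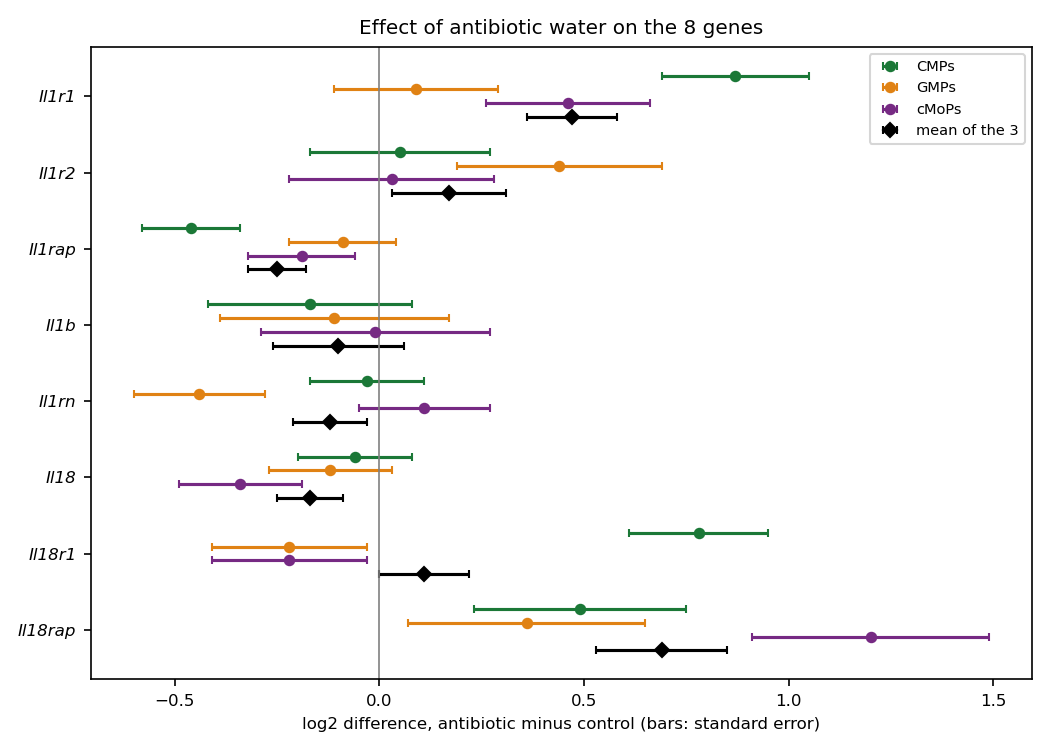
Antibiotic minus control difference in log2 signal (horizontal axis) for each of the 8 genes (vertical axis), in CMPs, GMPs and cMoPs and as their mean; bars are standard errors of the limma fit. Of the means, those of Il1r1 (0.47) and Il18rap (0.69) were called, and Il18r1 shows a CMP value of 0.78 beside GMP and cMoP values of -0.22.

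Il18r1, the ligand-binding chain of the IL-18 receptor, was dim except in CMPs after antibiotics. There it had 5.14, 4.38 and 4.67, against 3.93, 4.10 and 3.82 in CMPs on control water. In GMPs it had 3.43, 3.68 and 3.71 after antibiotics and 3.88 and 3.78 in control water. In cMoPs it had 3.64, 3.65 and 3.53 after antibiotics and 4.02 and 3.64 in control water. The CMP antibiotic arrays lay above every other array, while in GMPs the antibiotic arrays lay below the controls. The difference was 0.78 ± 0.17 in CMPs, with a limma adjusted p of 0.237, and it did not pass the threshold. It was -0.22 ± 0.19 in both GMPs and cMoPs, with limma adjusted p of 0.851 and 0.926. The test of unequal effects gave an unadjusted p of 0.00136, which adjusted to 0.69 over all genes.

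Markers of cells that carry IL-18 receptors were read beside these chains. Of 11 T and natural killer cell markers, 0 were called for water in limma over the 3 progenitors, where 0.514% of all genes were. Among them 1 had an unadjusted p under 0.05, near the 9.54% of all genes. Within CMPs 0 were called and 2 had such a p, where 7.24% of all genes did. The median difference of the 11 in CMPs was 0.07, with 7 positive and 4 negative. Their mean log2 signal was 4.13 in CMPs after antibiotics and 4.03 in control CMPs, 4.23 and 4.30 in GMPs after antibiotics and on control water, and 4.16 and 4.25 in cMoPs after antibiotics and on control water. The differences of 2 T cell receptor components had opposite signs in CMPs: Cd3d was 3.95 ± 0.40 after antibiotics and 2.97 ± 0.37 in control water (SD, n = 3 each), and Cd3e 2.94 ± 0.11 after antibiotics and 3.39 ± 0.25 in control water. Neither difference was called by limma, with adjusted p of 0.39 and 0.637. Of 8 mast cell and basophil markers, which include Gata2 as the list of genes high in CMPs also does, 1 was called higher over the 3 progenitors. It was the mast cell protease Cpa3, at 0.81 ± 0.12 (limma adjusted p = 0.0143), where 0.271% of all genes were called higher. Within cMoPs 0 of the 8 were called, and 3 had an unadjusted limma p under 0.05, where 6.2% of all genes did. Their median difference there was 0.20, against -0.01 over all genes, with 6 positive and 2 negative. The mean of that list was 6.52 in CMPs after antibiotics and 6.37 in control CMPs, 7.09 and 7.03 in GMPs after antibiotics and on control water, and 5.22 and 5.07 in cMoPs after antibiotics and on control water. The part of either list in the receptor results was not tested.

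Il1rap, the accessory chain shared by the receptors for IL-1, IL-33 and IL-36, had its lowest signals in the CMPs after antibiotics, where Il1r1 had its highest. In CMPs its log2 signal was 4.46, 4.52 and 4.44 after antibiotics, against 4.78, 5.16 and 4.87 in control water. In GMPs it was 5.30, 5.21 and 5.24 after antibiotics and 5.27 and 5.42 in control water, and in cMoPs 5.01, 5.08 and 5.04 after antibiotics and 5.30 and 5.17 in control water. The antibiotic arrays all lay below the controls in CMPs and in cMoPs. The averaged difference was -0.25 ± 0.07 (limma adjusted p = 0.278), and those of the single progenitors were -0.46 ± 0.12 in CMPs (0.34), -0.09 ± 0.13 in GMPs (0.921) and -0.19 ± 0.13 in cMoPs (0.896). None of these was called. Its other 2 probe sets were dim, at 2.10 to 3.23 and at 2.59 to 3.40 over the 16 arrays. In the alternative over all probe sets they were tested as features of their own. They entered the Il1rap values only in the alternative that took the mean of a gene's probe sets. There the averaged difference of Il1rap was -0.14 and that in CMPs -0.20, and GMPs exceeded CMPs by 0.32.

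Across the 16 arrays the signals of Il1r1 and Il1rap correlated at r = -0.91. The arrays share their group structure, and after the group means were removed the value was -0.14, so the relation lay between groups and not among replicates. Il1r1 also correlated with Il18 at 0.80 and with Il18r1 at 0.78 over the same arrays. These are descriptions over 16 arrays in 6 groups.

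The remaining members were dim and none was called for water. Il1b, which encodes IL-1 beta, ranged from 3.06 to 4.19 over the 16 arrays, and its antibiotic effect was -0.10 ± 0.16 (95% interval -0.43 to 0.23). Il18 ranged from 3.24 to 4.37, with an effect of -0.17 ± 0.08 (limma adjusted p = 0.544). Its cMoP arrays did not overlap, at 3.58, 3.24 and 3.46 after antibiotics and 3.75 and 3.79 in control water, a difference of -0.34 ± 0.15 (limma adjusted p = 0.798). The antagonist Il1rn had 3.70, 4.04 and 4.03 in GMPs after antibiotics, below 4.28 and 4.44 in control GMPs, a difference of -0.44 ± 0.16 (limma adjusted p = 0.555). The decoy receptor Il1r2 ranged from 3.16 to 4.36, and its effect was 0.17 ± 0.14 (limma adjusted p = 0.72).

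Counted over the set, the antibiotic arrays lay wholly on 1 side of the controls for 3 of 8 genes in CMPs, 3 of 8 in GMPs and 4 of 8 in cMoPs. Over all genes this happened for 11.6% in CMPs, 23% in GMPs and 21% in cMoPs. Such a separation is common with so few arrays, and it only describes the values.

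Between progenitors, 4 of the 8 genes differed between GMPs and CMPs over both waters, 1 higher and 3 lower in GMPs, in a comparison that called 16% of all genes, 7.87% higher and 8.17% lower. Il1r1 was lower in GMPs, at a log2 difference of -2.17 ± 0.13 (limma adjusted p = 8.14e-09), so that CMPs stood 4.51-fold above GMPs. Il18 differed by -0.58 ± 0.10 (0.000706) and Il18r1 by -0.62 ± 0.13 (0.00268), and both were lower in GMPs. Il1rap was higher in GMPs by 0.59 ± 0.09 (limma adjusted p = 0.000144). The other 4 genes, Il1r2, Il1b, Il1rn and Il18rap, were not called, with differences from -0.14 to 0.22.

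Between cMoPs and CMPs, 5 of the 8 genes differed, where 18.9% of all genes did, 9.72% higher and 9.2% lower. Il1r1 was again far lower, at -1.99 ± 0.13 in cMoPs (limma adjusted p = 1.82e-08), which put CMPs 3.98-fold above cMoPs. Il18 (-0.59 ± 0.10, adjusted p = 0.000489), Il18r1 (-0.62 ± 0.13, 0.00224) and Il1r2 (-0.50 ± 0.16, 0.0457) were lower in cMoPs, and Il1rap was higher (0.43 ± 0.09, 0.00193). The Il1r2 call sat close to the threshold and was kept in 5 of the 16 fits that left out 1 array, those without CMP antibiotic 3, CMP control 3, GMP antibiotic 1, GMP antibiotic 3 or cMoP antibiotic 3. Between cMoPs and GMPs, 0 of 8 genes were called by limma against 5.42% of all genes. At an unadjusted p under 0.05 there was 1, Il18rap, at -0.53 ± 0.20 (adjusted p = 0.189), where 15.8% of all genes had such a p. These comparisons share arrays with each other, so their values are not independent.

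**Figure D3:**
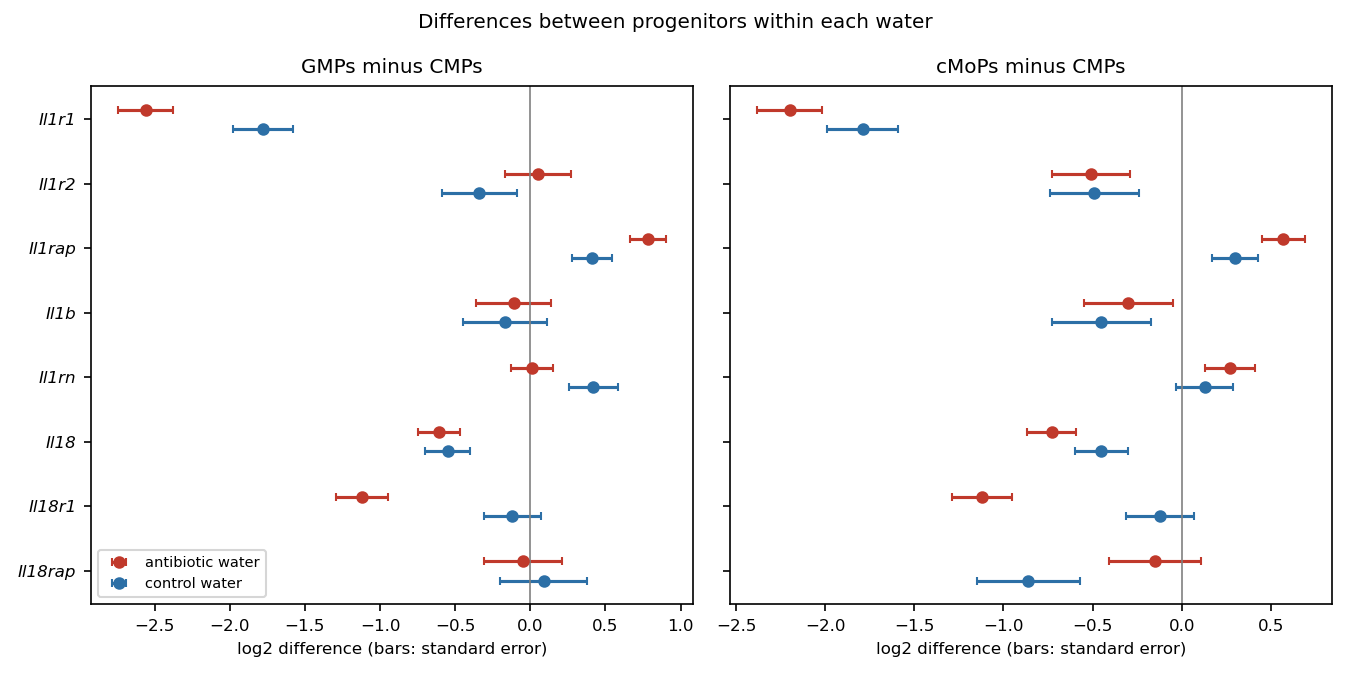
Differences in log2 signal (horizontal axis) of GMPs minus CMPs and of cMoPs minus CMPs for the 8 genes (vertical axis), computed within antibiotic water and within control water; bars are standard errors of the limma fit. Il1r1 is far below 0 in both waters, while Il18r1 is at -1.12 within antibiotic water and at -0.12 within control water.

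The progenitor differences were then taken within each water, a split added after the data had been seen. Il1r1 was called in both: GMPs minus CMPs gave -2.56 ± 0.18 after antibiotics and -1.78 ± 0.20 in control water, and cMoPs minus CMPs gave -2.20 ± 0.18 after antibiotics and -1.79 ± 0.20 in control water. These differences and the CMP effect of 0.87 come from the same CMP arrays. Il18r1 was at -1.12 ± 0.17 for GMPs minus CMPs after antibiotics (limma adjusted p = 0.000268) and at -0.12 ± 0.19 in control water (0.804). The same estimates were found for cMoPs minus CMPs, with adjusted p of 0.000225 after antibiotics and 0.778 in control water. The call of Il18r1 between progenitors therefore rested on the antibiotic arrays, and the test of unequal water effects given above did not pass after adjustment.

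Il1rap kept its sign in both waters: GMPs exceeded CMPs by 0.78 ± 0.12 after antibiotics (limma adjusted p = 0.00025) and by 0.41 ± 0.13 in control water (0.074). For cMoPs against CMPs it was 0.57 ± 0.12 after antibiotics (0.00302) and 0.30 ± 0.13 in control water (0.191). Il18 was lower in GMPs than in CMPs by a called amount in both waters, at -0.61 ± 0.14 after antibiotics and -0.55 ± 0.15 in control water. For cMoPs minus CMPs it was -0.73 ± 0.14 after antibiotics (limma adjusted p = 0.00131) and -0.45 ± 0.15 in control water (0.0804), where it was not called. For Il18rap, cMoPs minus CMPs was -0.15 ± 0.26 after antibiotics and -0.86 ± 0.29 in control water (limma adjusted p = 0.074), neither of them called. In all, 4 genes were called between GMPs and CMPs after antibiotics and 2 in control water, where 10.9% and 8.05% of all genes were. Between cMoPs and CMPs the counts were 4 after antibiotics and 1 in control water, where 13.5% and 10.2% of all genes were called. Between cMoPs and GMPs limma called 0 in either water, where it called 3.9% of all genes after antibiotics and 1.74% in control water, and at an unadjusted p under 0.05 there was 1 in each water, Il1r2 (-0.56 ± 0.22) after antibiotics and Il18rap (-0.95 ± 0.32) in control water, beside 13.6% and 11% of all genes.

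Genes with a pattern like that of a member were sought by Pearson correlation over the 16 arrays among genes brighter than the median gene. Il1r1 was most like Prdx2 (r = 0.971), a peroxiredoxin abundant in red cells, Rhag (0.968), an erythroid membrane glycoprotein, and Asb17os (0.964), a long non-coding RNA. Rhag averaged 8.85 in CMPs after antibiotics and 8.15 in control CMPs, and 3.56 to 3.85 in the GMP and cMoP groups. The antibiotic effect in CMPs was called for Asb17os, at 1.40 ± 0.24 (limma adjusted p = 0.118). It was not called for Rhag (0.70 ± 0.18, 0.357) or Prdx2 (0.30 ± 0.13, 0.666). These genes were picked for their likeness to Il1r1 over the same arrays. Il18 was most like Kcnk5 (0.943), Mthfd1 (0.940) and Ltf (0.935), and Il18r1 like Satb1 (0.897), H2bc21 (0.883) and Yipf6 (0.882). Il1rap was most like Ssr3 (0.933), Shc1 (0.927) and Tacc1 (0.923). The other 4 members had no gene above 0.868, the value of Ppil1 with Il1rn, and for Il18rap the closest was Zfp672 at 0.825. Much of each value reflects the difference between progenitors that the arrays share.

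The wider pathway was read from gene lists that were chosen with earlier results of these data known. In these lists 0 genes were called for water in any of the comparisons. Among other ligands and receptors of the family 8 of 13 were measured, among adaptors and kinases 14 of 15, among inflammasome genes 14 of 14, among NF-kB components 8 of 10 and among NF-kB target genes 15 of 15. The count at an unadjusted p under 0.05 over the 3 progenitors was 0, 1, 1, 0 and 3 in these lists, and within single progenitors it was 0 or 1 in each. Beside the 9.54% of all genes at this p over the 3 progenitors, and the 6.2% to 7.49% within single ones, most of these counts are near the share of all genes. Nlrc4, a bacterial sensor of the inflammasome, had the smallest adjusted p among them over the 3 progenitors, at 0.57 ± 0.15 (limma adjusted p = 0.234). It had 5.09, 4.54 and 4.91 in CMPs after antibiotics, against 4.24, 4.17 and 3.95 in control CMPs. Of the NF-kB targets, the cytokine gene Tnf was at 0.43 ± 0.16 (0.396) and the feedback inhibitor gene Nfkbia at 0.28 ± 0.10 (0.377), neither of them called.

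Il18bp, which encodes the soluble inhibitor that binds IL-18, differed in sign between progenitors. It had 5.13, 5.85 and 4.98 in CMPs after antibiotics, against 5.94, 5.84 and 6.37 in control CMPs. In GMPs it had 6.64, 5.80 and 6.02 after antibiotics, against 5.39 and 5.42 in control GMPs. The differences were -0.73 ± 0.23 in CMPs (limma adjusted p = 0.479), 0.75 ± 0.25 in GMPs (0.52) and -0.10 ± 0.25 in cMoPs (0.982). None was called, and the test of unequal effects had a limma adjusted p of 0.694.

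Between progenitors, most inflammasome genes were higher in GMPs and cMoPs than in CMPs. In GMPs 10 of the 14 genes were higher than in CMPs and 0 lower, where 7.87% of all genes were higher and 8.17% lower, with a median difference of 0.68 against 0.02 over all genes. In cMoPs 11 were higher than in CMPs and 0 lower, where 9.72% of all genes were higher and 9.2% lower, with a median of 0.86 against 0.04. Mefv, which encodes the sensor pyrin, was higher in GMPs by 2.02 ± 0.18 and in cMoPs by 2.93 ± 0.18, and Naip2, which encodes a sensor of bacterial secretion proteins, by 1.91 ± 0.18 in GMPs and 1.90 ± 0.18 in cMoPs. Nlrc4 was higher by 1.08 ± 0.18 in GMPs and 0.81 ± 0.18 in cMoPs. Nlrp3, the sensor most studied for IL-1 beta release, was higher in cMoPs by 1.67 ± 0.19 and not called in GMPs (0.14 ± 0.19). Casp1, the protease that matures IL-1 beta and IL-18, was higher by 0.62 ± 0.12 in GMPs and 0.91 ± 0.12 in cMoPs. Directly between cMoPs and GMPs, 3 of the 14 were higher in cMoPs (Nlrp3 at 1.53, Mefv at 0.91, Pycard at 0.46) and Casp4 was lower, at -0.53. In that comparison 5.42% of all genes were called, in either direction.

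**Figure D4:**
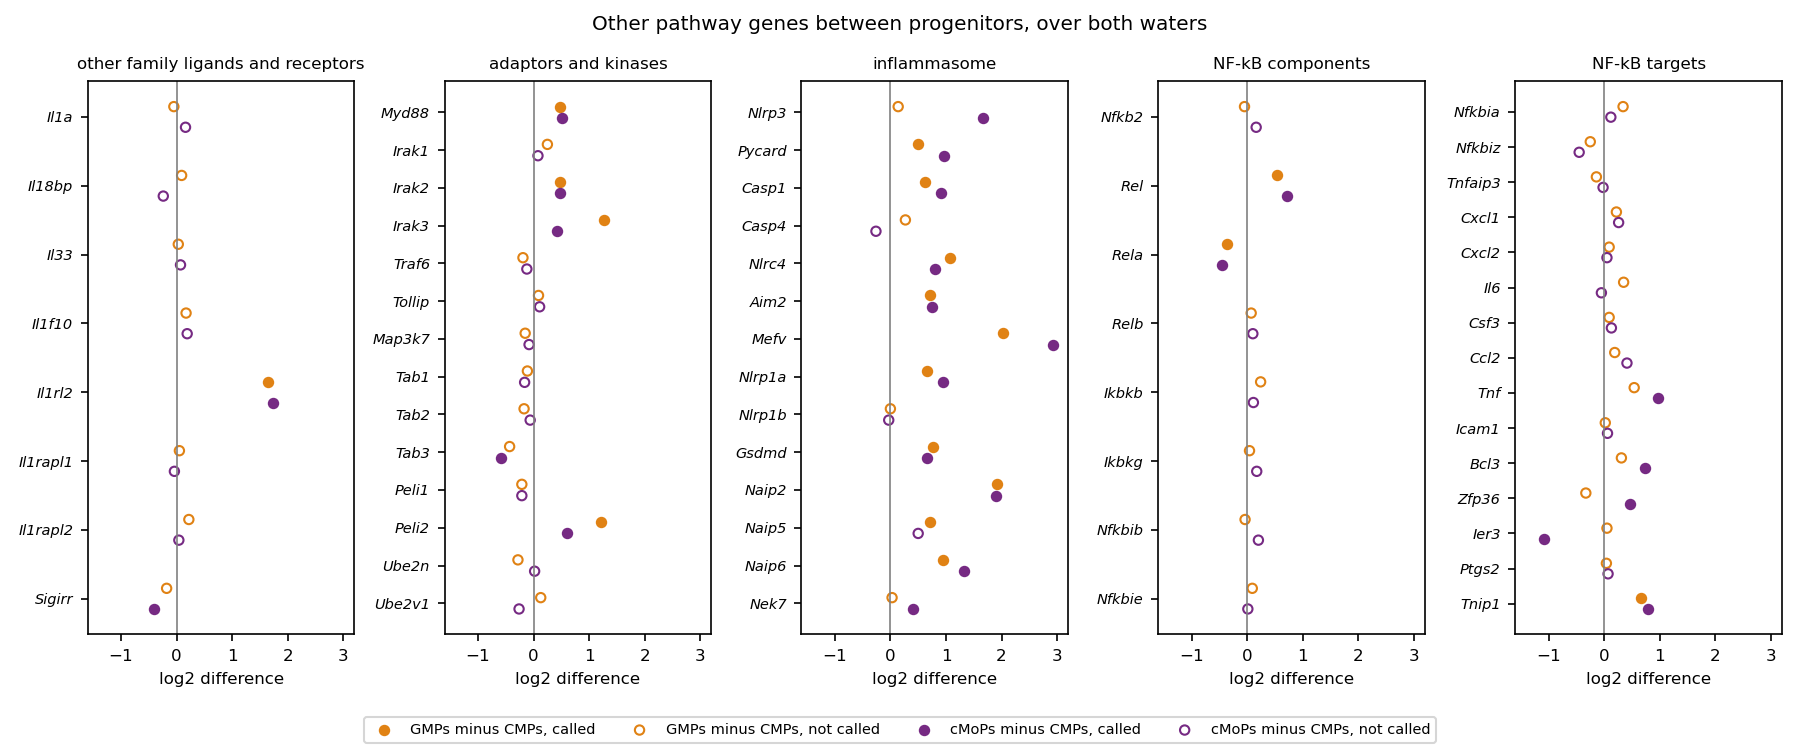
Differences in log2 signal (horizontal axis) of GMPs minus CMPs and cMoPs minus CMPs over both waters for the measured genes of 5 pathway lists (vertical axes); filled points passed a limma adjusted p of 0.05 and open points did not. In the inflammasome list 10 and 11 of 14 points are filled and right of 0, with Mefv farthest, at 2.02 and 2.93.

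Of the adaptors and kinases, 4 of 14 were higher in GMPs than in CMPs and 0 lower, beside the 7.87% and 8.17% of all genes. They were the inhibitory kinase gene Irak3 (1.26 ± 0.11), the ubiquitin ligase gene Peli2 (1.22 ± 0.17), the shared adaptor Myd88 (0.48 ± 0.12) and Irak2 (0.47 ± 0.15). In cMoPs against CMPs 4 were higher, Peli2 (0.60 ± 0.17), Myd88 (0.51 ± 0.12), Irak2 (0.47 ± 0.15) and Irak3 (0.42 ± 0.11). The only lower one was Tab3, at -0.58 ± 0.19. Of all genes 9.72% were higher and 9.2% lower there, so the lower count is near its share. Between cMoPs and GMPs only Irak3 was called, at -0.84 ± 0.11, a count near the 5.42% of all genes. Il1rl2, the IL-36 receptor gene in the chromosome 1 cluster next to Il1r1, differed from CMPs in the other direction, higher by 1.64 ± 0.16 in GMPs and 1.73 ± 0.16 in cMoPs. Sigirr, a dampening receptor of the family, was lower in cMoPs than in CMPs by a difference of -0.40 ± 0.11. Il1a, which encodes IL-1 alpha, was not called in any comparison.

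Of the 8 measured NF-kB components, 1 was higher and 1 lower in GMPs than in CMPs, Rel at 0.53 ± 0.15 and Rela at -0.36 ± 0.09. Against CMPs the same 2 were called in cMoPs, at 0.71 ± 0.15 and -0.46 ± 0.09. With so few genes these counts are near the shares of all genes. Those were 7.87% higher and 8.17% lower in GMPs, and 9.72% and 9.2% in cMoPs. No other component of the 8 was called in these 2 comparisons. Of the 15 targets, 1 was higher in GMPs than in CMPs, Tnip1 (0.66 ± 0.11), a count near the 7.87% of all genes. In cMoPs 4 were higher than in CMPs, where 9.72% of all genes were, Tnf (0.96 ± 0.19), Tnip1 (0.79 ± 0.11), Bcl3 (0.74 ± 0.17) and Zfp36 (0.47 ± 0.13). The early response gene Ier3 was lower in cMoPs, at -1.09 ± 0.17 against CMPs and -1.15 ± 0.17 against GMPs. Zfp36 was higher in cMoPs than in GMPs, at 0.81 ± 0.14. Mature neutrophil markers, which could carry Il1b and Il1r2 transcripts, had a mean of 8.15 in both CMP groups, 7.71 and 7.72 in GMPs after antibiotics and on control water, and 7.45 and 7.44 in cMoPs after antibiotics and on control water. Of these 10 markers 8 were lower in cMoPs than in CMPs, where 9.2% of all genes were, beside the lower Il1r2. In GMPs 6 were lower than in CMPs and 1 higher, where 8.17% of all genes were lower and 7.87% higher. Il1r2 was not called between GMPs and CMPs, at -0.14 ± 0.16. The part of these markers in the Il1r2 difference was not tested.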

How the data were processed

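The authors deposited log2 signals, 1 for each probe set on each array. Per the submitters' processing notes, the tools were Partek and the Transcriptome Analysis Console. Background correction, summarisation, normalization and tool versions were not given in the sources used here. Per the labels' protocols, 2.6 ng of RNA per sample went through NuGen cDNA amplification and biotin labelling, and amplification can blur differences of dim genes. Of 41345 probe sets, 23521 carried 1 gene symbol. The brightest per gene was kept, which gave 22180 genes, with no filter on dim ones.

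A model with 6 group means was fitted to all arrays with limma 3.58.1 in R 4.3.3 (10 residual degrees of freedom, eBayes prior SD 0.199) and checked on simulated data. P-values are two-sided and were adjusted by Benjamini-Hochberg over all genes. Water effects were called under 0.2, the rate in the study's design text, and progenitor differences under 0.05. Errors of differences are standard errors, and all differences are in log2.

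The members, gene lists and motifs were chosen with earlier results of these data known. All members are named, and of each pathway list the genes called for water and, per progenitor comparison, the 3 called genes with the largest rise and the 3 with the largest fall. Il18bp, Nlrc4, Tnf, Nfkbia, Casp1, Il1a, Cd3d, Cd3e, Ccr2, F13a1, Prtn3, Elane and Cpa3 were named for their role or after their values were seen. Likeness used the 3 genes of highest Pearson r. Alternatives covered dim genes, all probe sets, mean probe sets, variance models, quantile normalization, a replicate block, the arrays compared only, single arrays left out and each water alone.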

Additional observations from a re-analysis of the deposited data

Results flagged for a closer look

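Il18r1 drew attention because its antibiotic arrays lay above the controls in CMPs and below them in GMPs. The antibiotic minus control difference was 0.78 in CMPs and -0.22 in GMPs. The interaction test of limma gave an unadjusted p of 0.00136 and an adjusted p of 0.69, so the difference between progenitors did not pass over all genes. All CMP control, GMP and cMoP group means of this gene lay below the array medians.

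Il18bp, the gene of the soluble IL-18 inhibitor, showed the same kind of split. Its difference was 0.75 in GMPs, where the antibiotic arrays lay above the controls, and -0.10 in cMoPs, where they had 5.37, 5.38 and 5.44 against 5.50 and 5.50. The interaction test gave an unadjusted p of 0.00217 and an adjusted p of 0.694. Both the GMP and the cMoP values rest on 2 control arrays.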

How the results depend on the processing

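Calls of the 8 genes for water were unstable and those for progenitors mostly stable. Over the 3 progenitors, 2 were called, and this count was 0 over all probe sets, 1 with a replicate block and 1 in a 2-way model without moderated variances, where it was Il1rap (-0.25, limma adjusted p 0.188). Among genes brighter than the median gene it was 3, with Il1rap called lower (adjusted p 0.151) beside Il1r1 and Il18rap. Over all probe sets more features were tested, and elsewhere the cause was not tested. With the replicate block Il1r1 was at 0.46 (adjusted p 0.257) and Il18rap at 0.75 (0.113). Deviations from group means correlated at -0.03 to 0.03 over 7 same-number pairs across waters. Across progenitors within a water, the median was 0.03 over 15 same-number pairs, of which 1 exceeded 0.1. Over 28 other-number pairs it was -0.02, and 0 exceeded 0.1. These values cannot decide if replicate numbers mark shared animals, because deviations within groups of 2 or 3 arrays are tied to each other. In CMPs 0 were called, but 1 among genes brighter than the median gene (Il1r1), 2 with trend and robust variances (Il1r1 and Il18r1) and 1 after quantile normalization (Il1r1). Among brighter genes only 3 members were tested, which left 2 calls of 4 between GMPs and CMPs and 2 of 5 between cMoPs and CMPs. Within control water, with fewer arrays, these were 2 and 1. Leaving out 1 array gave 0 to 2 calls over the 3 progenitors, 0 to 1 in CMPs, 0 to 1 in cMoPs and 4 to 6 between cMoPs and CMPs. The extra calls were Il18r1 in CMPs without CMP antibiotic 2, Il1r1 in CMPs without GMP antibiotic 3, Il18rap in cMoPs without cMoP control 2, and Il18rap between cMoPs and CMPs without CMP antibiotic 3 or cMoP antibiotic 2. Il1r2 lost its cMoP call over all probe sets, with only the arrays compared and without moderated variances.

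No called gene changed sign. Among those not called, Il1b in cMoPs turned to 0.04 after quantile normalization and 0.08 with the block. Within antibiotic water, Il1r2 turned to 0.05 and Il18rap to -0.05 between GMPs and CMPs, and Il1rn to 0.25 between cMoPs and GMPs. Within control water, Il18 turned to 0.10 between cMoPs and GMPs. Signs also crossed 0 when 1 array was left out. The water effects concerned were, in CMPs, Il1r2 (-0.15 to 0.24), Il1b (-0.44 to 0.07), Il18 (-0.15 to 0.02) and Il1rn (-0.17 to 0.12). In GMPs they were Il1b (-0.27 to 0.05), Il1r1 (-0.10 to 0.20) and Il18 (-0.25 to 0.01), and in cMoPs Il1b (-0.17 to 0.12) and Il1r2 (-0.09 to 0.15). Between GMPs and CMPs it was Il18rap (-0.11 to 0.16), and between cMoPs and GMPs Il1rn (-0.08 to 0.02) and Il18 (-0.08 to 0.05).

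Over all genes, the 114 calls over the 3 progenitors became 59 over all probe sets, 353 among brighter genes, 350 with trend and robust variances and 41 to 269 without 1 array. The 9 calls in CMPs ranged from 1 to 61 over the alternatives, the 16 in GMPs from 0 to 42, and the 29 in cMoPs from 2 to 226. The interaction's single call became as many as 24 without 1 array. With 2 or 3 arrays a group and no detection calls, changes of dim genes such as Il1b, Il18 and Il1r2 are poorly bounded.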

Other observations

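The B lineage markers, another cell type that the sort should lack, had 5 of 6 genes measured. Of these, 0 were called for water in limma over the 3 progenitors, where 0.514% of all genes were. At an unadjusted p under 0.05 there were 0, where 9.54% of all genes had such a p. Of the 9 macrophage markers, 0 were called for water, and their mean log2 signal was 4.20 in CMPs after antibiotics and 4.41 in control CMPs. Over the 8 members together, the mean log2 signal was 4.90 in CMPs after antibiotics and 4.71 in control CMPs, 4.45 and 4.46 in GMPs after antibiotics and on control water, and 4.38 and 4.25 in cMoPs after antibiotics and on control water.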
